A study of Homo sapiens with 8 samples.

Results

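MiR-106b, miR-93 and miR-25 are 3 miRNAs cut from hairpins that lie side by side in 1 intron of MCM7, a gene for a subunit of the replicative DNA helicase. Each hairpin yields a 5p and a 3p arm, so the cluster has 6 mature products. They were taken by name from count files of HCT116, a human colorectal cancer cell line: all 6 names were present among the 2575 in each file. HCT116 cells at passages 16 to 19 were grown as adherent cultures. In 4 libraries the cells had been exposed for 6 hours, at a multiplicity of infection of 500, to ETBF. This is enterotoxigenic Bacteroides fragilis, a bacterium of the colon whose toxin is a secreted metalloprotease. The other 4 libraries came from control cells that were titled untreated and, per the labels' protocols, received bacterial medium without ETBF. All 8 libraries come from this 1 cell line, and the labels do not say whether replicates were separate cultures. The p-values therefore set the group difference only against the scatter of these samples, and part of that scatter may be technical.

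A miRNA finds its target mRNAs mainly through its seed, the bases 2 to 8 from its 5′ end, and loads into an Argonaute protein as 1 of the hairpin's arms. The cluster is a paralog of the miR-17-92 cluster and of the miR-106a-363 cluster. MiR-106b-5p and miR-93-5p are known to repress CDKN1A, an inhibitor of cyclin-dependent kinases, and miR-25-3p is known to repress BCL2L11, a pro-apoptotic protein. In gastrointestinal tumours the cluster is known for blunting the growth arrest and cell death that TGF-beta sets off, and its transcription follows that of MCM7, an E2F target.

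The sequences are shown because the results are grouped by seed and by arm. All 6 are from RefSeq on GRCh38.p14, minus strand of chromosome 7, written 5′ to 3′ with the seed in capitals, and are 21 to 23 bases long. MiR-106b-5p and miR-93-5p carry the same seed, AAAGUGC, miR-25-3p carries AUUGCAC, and each of the other 3 arms has a seed shared by no other miRNA of the files for which RefSeq gave a sequence.
hsa-miR-106b-5p: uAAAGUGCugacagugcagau
hsa-miR-106b-3p: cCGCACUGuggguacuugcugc
hsa-miR-93-5p: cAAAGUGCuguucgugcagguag
hsa-miR-93-3p: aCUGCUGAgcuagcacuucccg
hsa-miR-25-5p: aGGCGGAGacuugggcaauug
hsa-miR-25-3p: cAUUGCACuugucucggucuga

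In GENCODE 29 (GRCh38) the hairpins MIR106B (chr7:100093993-100094074), MIR93 (chr7:100093768-100093847) and MIR25 (chr7:100093560-100093643) stand in this order in the direction of transcription within a 771-base intron (chr7:100093402-100094172), between exons 13 and 14 of the transcript MCM7-201. The MIR106B and MIR25 hairpins are shown with both mature arms in capitals, to place the arms whose balance is compared: the 5p arm is the capital run on the left and the 3p arm the one on the right.
MIR106B: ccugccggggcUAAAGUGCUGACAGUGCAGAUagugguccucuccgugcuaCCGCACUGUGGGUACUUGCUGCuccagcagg
MIR25: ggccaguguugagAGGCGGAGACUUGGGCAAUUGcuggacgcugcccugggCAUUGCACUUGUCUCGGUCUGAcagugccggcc

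The relatives that share a seed with the cluster, shown for the comparison made with them, come from other loci. MiR-17-5p and miR-20a-5p are on chromosome 13, miR-106a-5p on chromosome X, miR-92a-3p on chromosomes 13 and X, miR-32-5p on chromosome 9 and miR-92b-3p on chromosome 1.
hsa-miR-17-5p: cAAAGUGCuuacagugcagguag
hsa-miR-20a-5p: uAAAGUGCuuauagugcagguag
hsa-miR-106a-5p: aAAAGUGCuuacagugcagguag
hsa-miR-92a-3p: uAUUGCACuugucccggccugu
hsa-miR-32-5p: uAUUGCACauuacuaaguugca
hsa-miR-92b-3p: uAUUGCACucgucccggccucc

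Library totals ran from 2591655 to 4706156 counts after ETBF and from 5243400 to 6522542 in control cells. Counts of 0 would allow up to 0.637 to 1.16 CPM after ETBF and 0.46 to 0.572 CPM in control cells (3 counts of the library total, counting error only; CPM is a count scaled to a common library total). MiRNA entries resembling ribosomal RNA and other RNA classes, listed as a sign of RNA quality, summed to 204 to 618 CPM after ETBF and 54.1 to 184 CPM in control cells, with 5 of 6 tested entries higher and miR-1290 at 0 counts. Their part in the results was not tested. Totals were lower in every ETBF library than in every control. On counts thinned to equal totals the 4 arms of the cluster that were called higher kept their calls. Epithelial marker miRNAs summed to 22326 to 25693 CPM after ETBF and 25522 to 26993 CPM in control cells (4 of 8 tested lower and 1 higher). Blood markers summed to 71.2 to 105 CPM in ETBF libraries and 58.4 to 68.0 CPM in controls (1 of 4 tested higher), and stromal and muscle markers to 232 to 285 CPM in ETBF libraries and 259 to 270 CPM in controls (0 of 3 called), with miR-133b and miR-206 at 0 counts. Of the neuronal and liver markers miR-124-3p was at 0 counts, while miR-9-5p made up nearly all of the list's 7537 to 9615 CPM after ETBF and 7795 to 9793 CPM in control cells (0 of 2 tested called). Beside the calls in these lists, 19.8% of all 480 tested miRNAs were called higher and 14.6% lower.

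In cells exposed to ETBF 4 of the 6 arms were higher than in control cells: the passenger arm miR-25-5p more than doubled, miR-106b-5p and miR-93-5p rose 1.43-fold and 1.38-fold, and miR-106b-3p rose least. MiR-25-3p and miR-93-3p did not pass the test. Across all 480 miRNAs with enough counts to test, 165 were called, which is 34.4%, with 95 higher (19.8%) and 70 lower (14.6%) by edgeR's quasi-likelihood test with a threshold of 0.05 on the adjusted p. Upper-quartile scaling gave 71 higher and 89 lower, and after removal of a GC trend 80 higher and 89 lower. All 6 arms passed the filter on low counts. Their median log2 fold change was 0.35, against 0.01 over all tested miRNAs, and the ETBF and control values of 4 arms did not overlap, as was so for 33.8% of the 480. The levels are relative to all counts of a bulk RNA library, so more molecules per cell and more cells carrying them cannot be told apart.

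**Figure D1:**
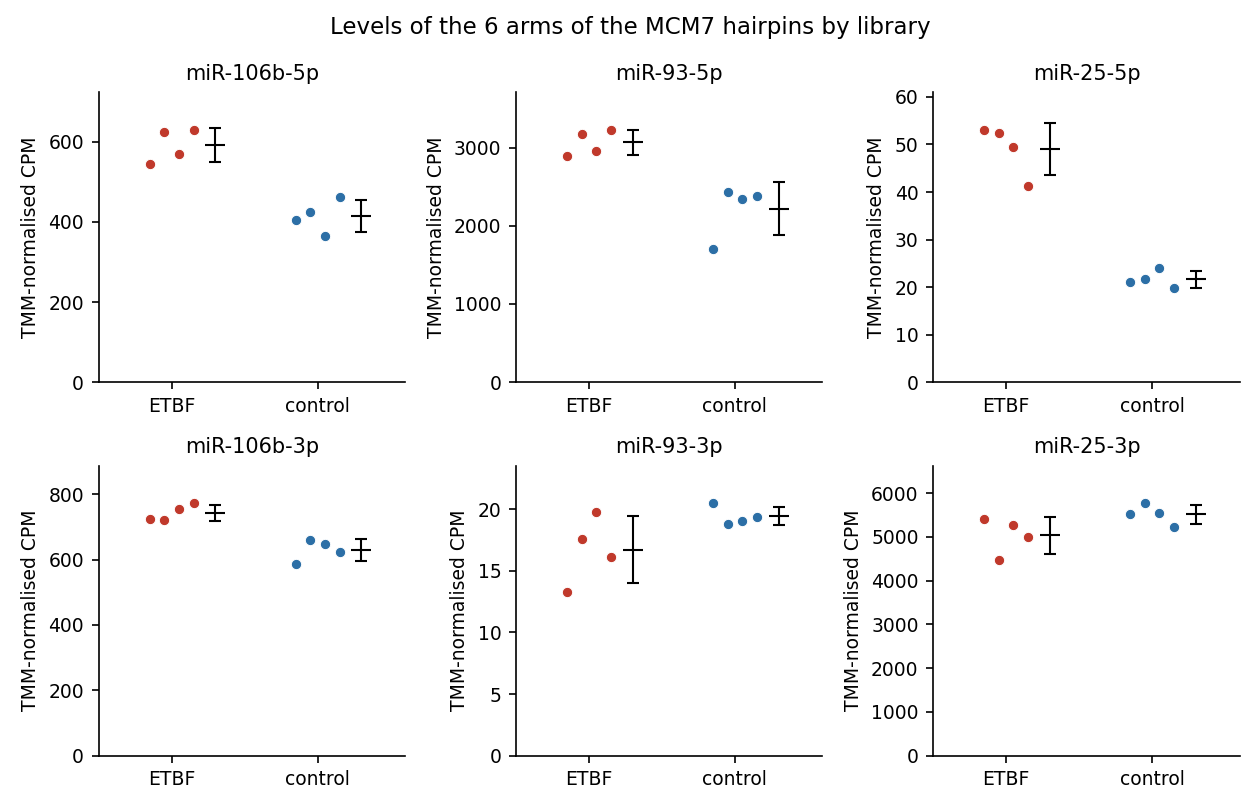
TMM-normalised CPM (vertical axes, from 0) of the 6 arms in each ETBF and control library; points are libraries, bars to their right the mean and SD of 4. The ETBF points lie above all control points for miR-106b-5p, miR-93-5p, miR-25-5p and miR-106b-3p, while the groups overlap for miR-93-3p and miR-25-3p.

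MiR-25-5p, the rare arm of the miR-25 hairpin, had 247, 223, 193 and 110 counts in ETBF replicates 1 to 4, and 106, 123, 126 and 133 counts in control replicates 1 to 4. On the CPM scale with TMM factors, which align libraries on the bulk of their miRNAs, this was 53.1, 52.4, 49.6 and 41.2 CPM after ETBF, against 21.1, 21.7, 24.0 and 19.8 CPM in control cells. Every ETBF library lay above every control. The mean was 49.1 ± 5.47 CPM after ETBF and 21.6 ± 1.72 CPM in control cells (SD, n = 4 each), a 2.28-fold rise with a log2 fold change of 1.19 (SE 0.11, edgeR adjusted p = 9.22e-07). Its log2 fold change ranked 22 from the top of the 480.

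MiR-106b-5p, which shares the AAAGUGC seed, had 543, 624, 569 and 630 CPM after ETBF, against 405, 424, 365 and 461 CPM in control cells. The groups did not overlap, with the lowest ETBF library above the highest control. It averaged 591 ± 42.2 CPM after ETBF and 414 ± 40.2 CPM in control cells (SD, n = 4 each), 1.43-fold higher (log2 fold change 0.51, SE 0.08, edgeR adjusted p = 0.0002). MiR-93-5p, the other arm with that seed, had 2897, 3176, 2962 and 3227 CPM after ETBF, against 1709, 2435, 2347 and 2382 CPM in control cells. Again no value overlapped, and control replicate 1 lay far below the other 3 controls. Its means were 3066 ± 160 CPM after ETBF and 2218 ± 342 CPM in control cells, 1.38-fold higher (log2 fold change 0.47, SE 0.10, edgeR adjusted p = 0.00121). Without control replicate 1 the log2 fold change was 0.36 and the call held (edgeR adjusted p = 0.000746).

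MiR-106b-3p, the other arm of the miR-106b hairpin, had 723, 721, 754 and 772 CPM after ETBF, against 585, 661, 646 and 623 CPM in control cells. The groups stayed apart by a narrow margin. The means were 742 ± 24.5 CPM after ETBF and 629 ± 33.1 CPM in control cells (SD, n = 4 each), a log2 fold change of 0.24 (SE 0.07, edgeR adjusted p = 0.0125). The call was lost in 3 alternatives: upper-quartile scaling (adjusted p = 0.142), no filter on low counts (0.17) and ETBF replicate 3 left out (0.0519).

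MiR-25-3p was the most abundant arm of the cluster, with 5420, 4462, 5263 and 5007 CPM after ETBF, against 5524, 5767, 5548 and 5230 CPM in control cells. The groups overlapped: ETBF replicates 1 and 3 lay above control replicate 4. It averaged 5038 ± 420 CPM after ETBF and 5517 ± 220 CPM in control cells, and its log2 fold change of -0.13 did not pass (SE 0.07, edgeR adjusted p = 0.171). It passed as lower with upper-quartile scaling (-0.22, adjusted p = 0.037) and when a trend on GC content was taken out (-0.21, adjusted p = 0.0244). MiR-93-3p, the passenger arm of miR-93, was the rarest, at 13.3, 17.6, 19.8 and 16.1 CPM after ETBF and 20.5, 18.8, 19.0 and 19.4 CPM in control cells. ETBF replicate 3 fell within the control range and the other 3 lay below it. The means were 16.7 ± 2.71 CPM after ETBF and 19.4 ± 0.737 CPM in control cells, with a log2 fold change of -0.22 (SE 0.13, edgeR adjusted p = 0.229).

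By mean level the arms ranked 25 (miR-25-3p), 38 (miR-93-5p), 68 (miR-106b-3p), 77 (miR-106b-5p), 207 (miR-25-5p) and 251 (miR-93-3p) among the 480 tested miRNAs. The order of the means was the same in both groups, and neighbours overlapped at its end: in control cells the libraries' values of miR-25-5p and miR-93-3p overlapped, and after ETBF they did not. MiR-106b was the hairpin with the most even arms, and its 3p arm had more counts than its 5p arm in every library.

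The mature products of this 1 transcript region did not keep their proportions. The levels of 33.8% of all 480 tested miRNAs also had groups without overlap, and shares within other sets of miRNAs were not computed. MiR-25-3p made up 53.0% ± 3.09 of the cluster's counts after ETBF and 62.6% ± 2.96 in control cells (SD, n = 4 each). Its share was 56.2%, 49.3%, 54.7% and 51.7% in the ETBF libraries, against 66.8%, 61.8%, 62.0% and 59.9% in control cells, with no overlap. MiR-93-5p took 32.3% ± 2.32 after ETBF and 25.1% ± 2.98 in control cells, and miR-106b-5p took 6.23% ± 0.568 after ETBF and 4.70% ± 0.515 in control cells. The 6 arms together stood at 9503 ± 301 CPM after ETBF and 8819 ± 443 CPM in control cells. These totals overlapped: ETBF replicate 2, at 9053.5 CPM, lay below control replicate 2, at 9327.2 CPM. As a share of all counts, without the TMM factors, the 6 arms held 0.954 to 0.999% after ETBF and 0.788 to 0.898% in control cells.

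**Figure D2:**
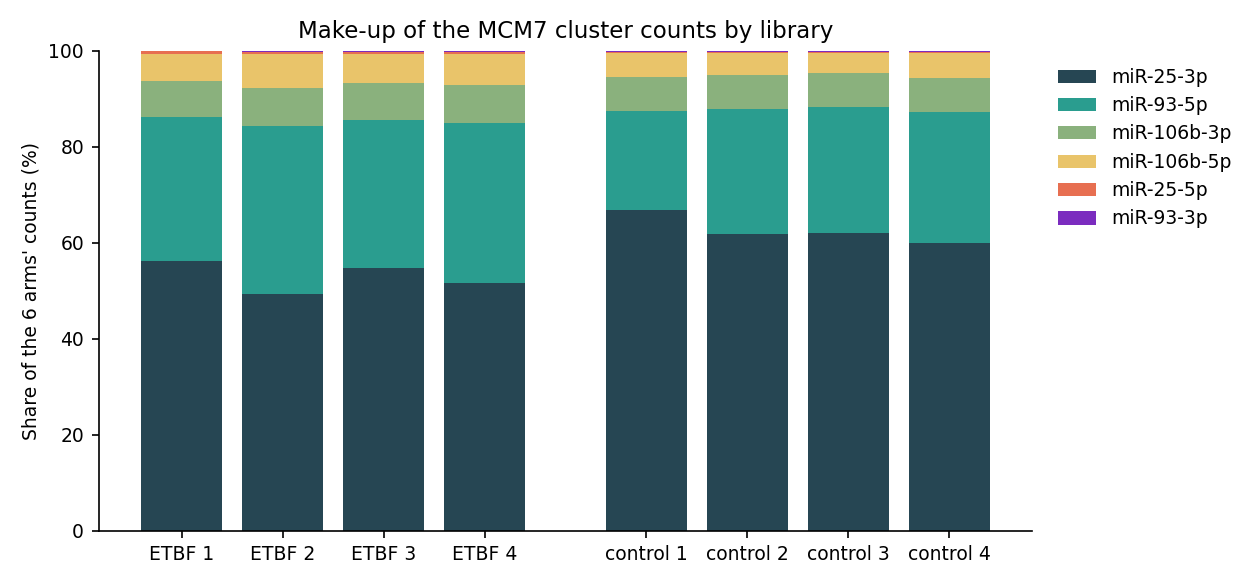
Share of the 6 arms' counts held by each arm (vertical axis, percent, stacked to 100) in the 4 ETBF and the 4 control libraries (horizontal axis). The miR-25-3p segment is shorter in every ETBF library (49.3 to 56.2%) than in every control (59.9 to 66.8%), and the miR-93-5p segment is longer.

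Ratios within a library do not depend on how libraries are scaled. Those between main arms were taken for this cluster only, so how often other pairs of miRNAs shift was not tested. The ratio of miR-93-5p to miR-25-3p was 0.535, 0.712, 0.563 and 0.644 after ETBF, against 0.309, 0.422, 0.423 and 0.455 in control cells. All ETBF libraries lay above all controls. On the log2 scale the ratio averaged -0.71 ± 0.188 after ETBF and -1.33 ± 0.248 in control cells, a difference of 0.61 (two-sided exact permutation p = 0.0286, the smallest that 70 arrangements allow, adjusted p = 0.0286 over 3 pairs of main arms). The main arm is the one with more counts, which for miR-106b was the 3p arm. MiR-106b-3p to miR-25-3p was at 0.133, 0.162, 0.143 and 0.154 after ETBF, against 0.106, 0.115, 0.116 and 0.119 in control cells, again without overlap. Its log2 ratio was -2.76 ± 0.122 after ETBF and -3.13 ± 0.0739 in control cells, a difference of 0.37 (exact permutation p = 0.0286, adjusted p = 0.0286). The log2 ratios of the 3 pairs are not independent results: each follows from the others, and the shares above use the same counts.

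MiR-106b-3p to miR-93-5p was lower in ETBF libraries, at 0.25, 0.227, 0.254 and 0.239, against 0.342, 0.271, 0.275 and 0.262 in control cells. The log2 ratio was -2.04 ± 0.0726 after ETBF and -1.81 ± 0.176 in control cells, a difference of -0.24 (exact permutation p = 0.0286, adjusted p = 0.0286). Without control replicate 1, the control farthest from the rest, the difference was -0.15, with an exact permutation adjusted p of 0.0571. The adjusted p was also 0.0571 with any ETBF library left out, and, for both ratios over miR-25-3p, with control replicate 1 left out (differences of 0.49 and 0.34). Tests with 1 library left out have fewer than 70 arrangements. Without control replicate 2, 3 or 4 the exact permutation adjusted p was still 0.0286 for all 3 pairs of main arms. With miR-106b-5p in place of the 3p arm, an alternative added after the data were seen, the seed partners stood at 0.188, 0.196, 0.192 and 0.195 after ETBF and 0.237, 0.174, 0.155 and 0.194 in control cells. Those ranges overlapped and the log2 difference was 0.038 (exact permutation p = 0.8). MiR-106b-5p to miR-25-3p differed by 0.65 on the log2 scale (exact permutation p = 0.0286, adjusted p = 0.0429 over the 3 pairs so taken). A GC trend was not taken out of the ratios. When it was taken out of the levels, miR-106b-3p and miR-93-5p lay closer, at log2 fold changes of 0.32 and 0.41, against 0.24 and 0.47 in the main fit. MiR-25-3p was then at -0.21, against -0.13.

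**Figure D3:**
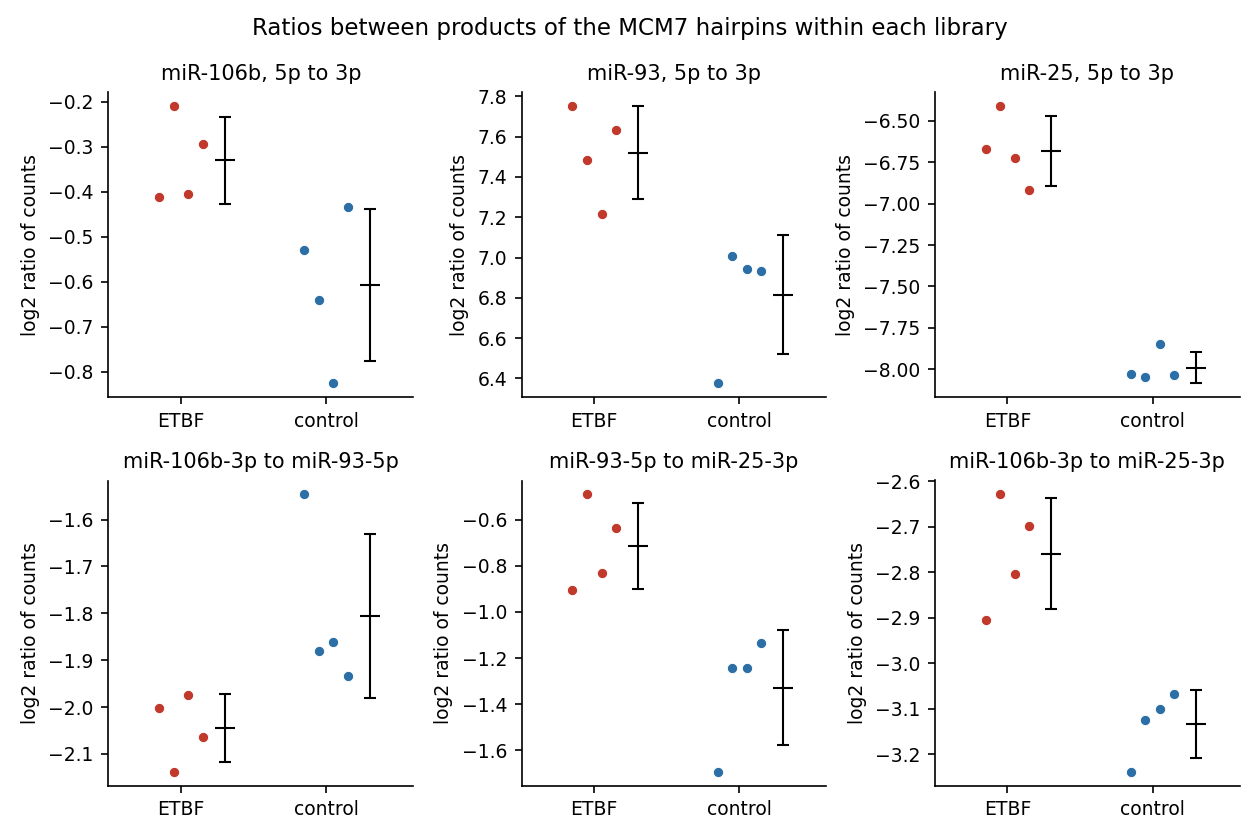
Log2 ratio of counts (vertical axes) between the arms of each hairpin (upper row) and between the main arms of different hairpins (lower row), with points for libraries and bars for the mean and SD of 4 ETBF and 4 control libraries. The miR-25 arm ratio lies at -6.68 after ETBF and -7.99 in control cells, and control replicate 1 lies apart from the other controls in the panels that hold miR-93-5p.

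The balance between arms of 1 hairpin moved towards the 5p arm for miR-25 and miR-93. Of 118 hairpins with both arms tested, 38 were called (32.2%), 14 with a higher 5p share (11.9%) and 24 with a lower one (20.3%), by limma on the log2 ratio of 5p to 3p counts. For every 100 miR-25-3p reads there were 0.979, 1.17, 0.942 and 0.822 miR-25-5p reads after ETBF, against 0.382, 0.376, 0.432 and 0.379 in control cells. Each ETBF library was above each control. The log2 ratio was -6.68 ± 0.211 after ETBF and -7.99 ± 0.0946 in control cells, a difference of 1.31 (SE 0.14, limma adjusted p = 0.000126), which ranked 4 by p among the 118 and 4 from the top by signed difference. For miR-93 there were 217, 180, 150 and 200 reads of the 5p arm per 3p read after ETBF, against 83.4, 129, 123 and 123 in control cells. Those groups did not overlap either. The log2 ratio was 7.52 ± 0.231 after ETBF and 6.81 ± 0.295 in control cells, a difference of 0.71 (SE 0.18, limma adjusted p = 0.0179), resting on 43 to 130 counts of miR-93-3p a library. Of 11 alternatives 3 did not give this call, including the fit without ETBF replicate 4 (adjusted p = 0.0505) and that on counts thinned to the smallest total (adjusted p = 0.0615). For miR-106b the ratio was 75.1, 86.5, 75.5 and 81.6 reads of the 5p arm per 100 of the 3p arm after ETBF, against 69.3, 64.1, 56.4 and 74.0 in control cells. The difference of 0.28 on the log2 scale did not pass (SE 0.13, limma adjusted p = 0.138), although the groups did not overlap, as was so for 33.1% of the hairpins.

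MiRNAs from other loci that share a seed with the cluster were set beside it. All 5 tested miRNAs with the seed AAAGUGC were higher after ETBF, with a median log2 fold change of 0.60. They include miR-106b-5p and miR-93-5p of the cluster itself, and miR-17-5p and miR-20a-5p, neighbours in 1 other cluster. Over all 480 tested miRNAs 19.8% were higher and 14.6% lower. The other 3 miRNAs in this seed family of 8 had too few counts to test. The 5 tested miRNAs with the seed AUUGCAC include miR-25-3p of the cluster. None of them passed with edgeR in either direction (0 at an unadjusted p of 0.05, median 0.030), and 1 more, miR-367-3p, had 0 counts. In limma-voom and DESeq2 fits these 5 were not called either, but miR-25-3p passed as lower with upper-quartile scaling (adjusted p = 0.037) and with the GC trend removed (adjusted p = 0.0244). The difference between the seed groups was not tested as such, beyond the ratios within the cluster.

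**Figure D4:**
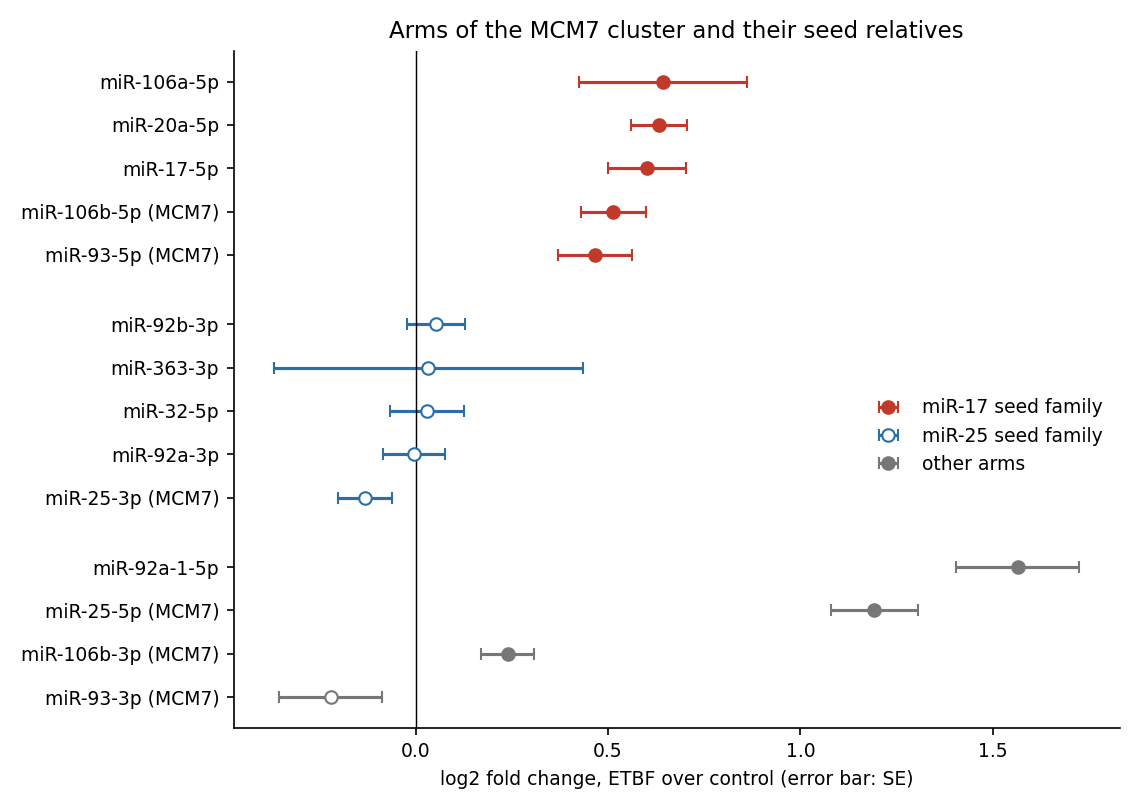
Log2 fold change of ETBF over control (horizontal axis) with its SE for arms of the MCM7 cluster, marked (MCM7), and for relatives with the seed of miR-17-5p or of miR-25-3p; filled circles have an edgeR adjusted p under 0.05. The 5 miRNAs of the miR-17 seed family lie between 0.47 and 0.64, and the 5 of the miR-25 seed family between -0.13 and 0.05.

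Among the AAAGUGC group, miR-20a-5p from the miR-17-92 cluster averaged 5456 ± 223 CPM after ETBF and 3520 ± 318 CPM in control cells (log2 fold change 0.63, SE 0.07, edgeR adjusted p = 5.88e-06). MiR-17-5p, its cluster neighbour, had 2786, 3268, 2949 and 3064 CPM after ETBF, against 1513, 2192, 2074 and 2177 CPM in control cells (log2 fold change 0.60, SE 0.10, edgeR adjusted p = 0.000258). Control replicate 1 was low for it as it was for miR-93-5p. MiR-106a-5p, at 7.47 ± 1.19 CPM after ETBF and 4.82 ± 1.05 CPM in control cells (log2 fold change 0.64, SE 0.22, adjusted p = 0.0308), was called, but that call was lost in 12 of 18 alternatives, thinning among them (adjusted p = 0.0654). It equals miR-17-5p in 22 of 23 bases, so its reads are uncertain. MiR-93-5p equals miR-17-5p in 19 of 23 bases and miR-106b-5p equals it in 18 of 21, compared position by position from the 5′ end.

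In the AUUGCAC group, miR-92a-3p, which equals miR-25-3p in 18 of 22 bases, averaged 8579 ± 664 CPM after ETBF and 8599 ± 895 CPM in control cells (log2 fold change -0.0034, SE 0.081, edgeR adjusted p = 0.973). MiR-32-5p was at 360 ± 41.5 CPM after ETBF and 352 ± 37.2 CPM in control cells (0.030, SE 0.096), and miR-92b-3p at 558 ± 41.3 CPM after ETBF and 538 ± 25.7 CPM in control cells (0.054, SE 0.075). The rare miR-363-3p was at 2.38 ± 1.13 CPM after ETBF and 2.28 ± 0.766 CPM in control cells (0.033, SE 0.40). Their signs turned under some alternatives.

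Of the 12 listed arms of the miR-17-92 cluster, 11 were tested, 6 were higher and 0 lower, with 5 not called and a median log2 fold change of 0.44; over all tested miRNAs 19.8% were higher and 14.6% lower. These lists were chosen with earlier results of these data known, and the cluster overlaps the seed groups. Its passenger arm miR-92a-1-5p, the paralog of miR-25-5p, had 28.4, 24.9, 21.8 and 18.7 CPM after ETBF, against 8.55, 6.87, 9.50 and 7.31 CPM in control cells (log2 fold change 1.56, SE 0.16, edgeR adjusted p = 1.97e-06). All ETBF libraries were above all controls. MiR-92a-3p, which comes from this hairpin and from a second gene on chromosome X, was not called. MiR-19b-3p (0.49, SE 0.14, adjusted p = 0.00953) and miR-18a-5p (0.38, SE 0.12, adjusted p = 0.0169), which have other seeds, were also higher. The groups of both overlapped. The call of miR-19b-3p was lost in the fit that left out ETBF replicate 2 (adjusted p = 0.0631). That of miR-18a-5p was lost in 7 of 19 alternatives, among them the fits that left out ETBF replicate 2 (adjusted p = 0.078) or 3 (0.067), or control replicate 1 (0.0507) or 2 (0.0635), and that on thinned counts (0.0532). Of 10 listed arms of the miR-106a-363 cluster 2 were tested, miR-106a-5p and miR-363-3p, and 5 had 0 counts in all 8 libraries.

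The miRNAs whose log2 CPM over the 8 libraries followed each main arm most closely were found by Pearson's r. These values are a description over 8 libraries that share the group difference and the scaling. For miR-93-5p they were miR-17-5p (0.99), miR-182-3p (0.96) and miR-20a-5p (0.95). For miR-106b-3p they were miR-7641 (0.97), an entry that resembles ribosomal RNA, miR-20a-5p (0.96) and miR-548d-3p (0.95). For miR-25-3p they were miR-744-5p (0.91), miR-340-3p (0.90) and miR-502-3p (0.90). With the group means taken out, miR-17-5p was still nearest to miR-93-5p (0.98), ahead of miR-30c-1-3p (0.98) and miR-548a-3p (0.97). The nearest to miR-106b-3p were then miR-100-5p (0.97), miR-1307-3p (0.93) and miR-6087 (0.93), and to miR-25-3p miR-340-3p (0.90), miR-494-3p (0.89) and miR-1278 (0.89). No arm of the MCM7 cluster was among the 3 nearest of another. MiR-93-5p and miR-106b-3p came close on log2 CPM, with an r of 0.943, against 0.947 for the third nearest of each.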

How the data were processed

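MiRNA libraries were made from total RNA of HCT116 cells. The deposited values are raw counts, listed by mature miRNA name in a separate file for each library. Per the submitters' processing notes, Trimmomatic, FastQC and featureCounts were used with GRCh37.p5. Not given in the sources used here are tool versions, aligner, annotation release and strand handling. Samples were grouped by title. From the deposited counts, edgeR 4.0.16 (R 4.3.3) was fitted over all names passing its expression filter at a minimum count of 10, with TMM factors, a 2-group design and Benjamini-Hochberg adjustment. These 480 names held at least 99.96% of each library's counts. The SE was taken as the log2 fold change over the root of the F statistic. Arm ratios were tested with limma 3.58.1 after adding 0.5 to each count. Exact permutation tests were two-sided. The scripts were tested on simulated data. Each of the 6 arms has 1 hairpin gene in RefSeq, and its counts had no common divisor across libraries. Pairs of libraries within a group differed beyond sampling noise, with chi-square values of 18.4 to 112 per degree of freedom.

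The members, the lists and the named miRNAs were chosen with earlier results of these data known. Marker lists covered epithelium, blood, stroma and muscle, neurons and liver, and entries resembling other RNA. The named miRNAs are the 6 arms, tested miRNAs with a main arm's seed, up to 6 arms of the paralogous clusters and the 3 nearest patterns per main arm. RefSeq sequences were found for 417 of the 480 names, and GC content came from these. Alternatives were RLE, total-count and upper-quartile scaling, no filter, a filter at a mean of 10 CPM, DESeq2 1.42.0, limma-voom, leaving out each library, a replicate block, thinning to 2591655 counts and removal of a GC trend, alone and with the block. For ratios they were adding 5 instead of 0.5, leaving out each library, the block and thinning. MCM7 mRNA was not analysed here.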

Additional observations from a re-analysis of the deposited data

Results flagged for a closer look

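In 3 of 24 groups of 4 values checked, 1 library lay far from the other 3. Chance gives about 1 in 20 such groups, and the values checked are not independent, since levels and ratios share counts. MiR-93-5p was at 1709 CPM in control replicate 1, with the 3 remaining controls between 2347 and 2435 CPM. The log2 ratio of miR-93 5p to 3p was 6.38 in the same library and 6.94 to 7.01 in the other controls. The log2 ratio of miR-25 5p to 3p was -7.85 in control replicate 3 and -8.05 to -8.03 in the other controls.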

How the results depend on the processing

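The calls of miR-106b-5p, miR-93-5p and miR-25-5p held in all 19 alternatives, with log2 fold changes of 0.42 to 0.57, 0.36 to 0.52 and 1.11 to 1.28. The count of arms called higher was 3 or 4 in every alternative. The count called lower was 1, miR-25-3p, with upper-quartile scaling and with the GC trend removed, and 0 in the other 17. The miR-25 arm ratio was called in all 11 of its alternatives (1.22 to 1.39). That of miR-93 was 0.65 after thinning and 0.56 to 0.81 with 1 library left out; that of miR-106b was never called (0.20 to 0.33). Leaving out 1 library gave log2 differences of -0.28 to -0.15 for miR-106b-3p to miR-93-5p, 0.49 to 0.68 for miR-93-5p to miR-25-3p and 0.33 to 0.42 for miR-106b-3p to miR-25-3p; without control replicate 1 each had an exact permutation adjusted p of 0.0571, as the pair of miR-106b-3p and miR-93-5p also had without any 1 ETBF library. Exact tests with 1 library left out have fewer arrangements. Without control replicate 2, 3 or 4 the exact permutation adjusted p was 0.0286 for each pair. Taking the 5p arm for miR-106b turned the miR-106b to miR-93 difference to 0.038.

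The labels do not say whether same-numbered libraries shared a culture or batch. Correlations of their deviations from the group means lay between -0.06 and 0.06, and 1 of 8 libraries correlated best with its own number. With the replicate block 92 miRNAs were higher and 67 lower, 4 arms were called higher and 0 lower, and the miR-93 arm ratio was 0.71 with a limma adjusted p of 0.0582. For the pairs of main arms the block keeps the differences of -0.24, 0.61 and 0.37 by construction, and its exact sign-flip test cannot give a p below 0.125, so it says nothing of their stability. The miR-25-3p call after GC removal was not made together with the block (adjusted p = 0.0504).

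Of relatives that were not called, signs turned as follows, with the cause not tested. MiR-92a-3p was at 0.048 with total-count scaling, 0.0084 with the stricter filter, 0.00039 with limma-voom and 0.024 after thinning. MiR-363-3p was at -0.050 under upper-quartile scaling, -0.0088 if unfiltered, -0.056 with GC removal and -0.088 with GC removal and the block. MiR-32-5p was at -0.054, -0.016, -0.12 and -0.12 in those 4 fits, and miR-92b-3p at -0.029 with upper-quartile scaling. With 1 library left out their values ran from -0.064 to 0.056 for miR-92a-3p, -0.21 to 0.25 for miR-363-3p, -0.042 to 0.085 for miR-32-5p and -0.0054 to 0.086 for miR-92b-3p. Of the 6 arms miR-93-3p had the fewest counts, 43 to 130 a library.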

Other observations

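Among the 118 hairpins with both arms tested, 33 of the rarer arms were higher after ETBF and 11 lower, with a median log2 fold change of 0.16. Of the more abundant arms 18 were higher and 30 lower, with a median of -0.01. Among all 480 tested miRNAs, 19.8% were higher and 14.6% lower. In 8 hairpins both arms were called in opposite directions, and in 7 of these the rarer arm was the higher one. None of the 3 MCM7 hairpins was among the 8. MiR-32, whose 5p arm carries the seed of miR-25-3p and which was singled out after its values were seen, had a lower 5p share after ETBF: its log2 ratio of 5p to 3p averaged 3.91 ± 0.290 in ETBF libraries, against 4.62 ± 0.186 in control cells (SD, n = 4 each), a difference of -0.70 (SE 0.17, limma adjusted p = 0.015). In the miR-25 hairpin the rarer arm is the 5p and in the miR-32 hairpin it is the 3p, and in both the rarer arm took a larger share after ETBF. MiR-92b, whose 3p arm carries the same seed and whose rarer arm is the 5p, was not called (difference of 0.033, SE 0.13, limma adjusted p = 0.863). In the miR-93 hairpin the rarer arm, the 3p, took a smaller share.

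The deviations of miR-106b-5p and miR-106b-3p from their group means had a Pearson's r of 0.03 over the 8 libraries, those of miR-93-5p and miR-106b-3p 0.80, and those of miR-25-3p and miR-25-5p 0.11, as a description.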
